A study of Mus musculus with 27 samples.

Results

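The genes described here encode the LSD1-CoREST complex: Kdm1a, its paralogue Kdm1b, the CoREST genes Rcor1, Rcor2 and Rcor3, and the subunit genes Hmg20b, Phf21a, Zmym2 and Gse1. They were taken by gene symbol as a known complex. The rule itself uses no measured value, but the members were chosen with earlier results of these data known. The files listed 24000 genes, and all 9 of these had a row in each of the 27 libraries. All 9 also passed the filter on low counts, which kept 12073 genes for testing. A gene is said to be called, or to pass, where its Benjamini-Hochberg adjusted p over all genes tested was under 0.05 in edgeR's quasi-likelihood test.

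LSD1, the product of Kdm1a, is a flavin-dependent demethylase that removes methyl groups from mono- and dimethylated lysine 4 of histone H3, a mark of active promoters and enhancers. CoREST proteins hold LSD1 together with the histone deacetylases HDAC1 and HDAC2 and bring the enzyme to nucleosomes, so that demethylation and deacetylation act at the same sites. DNA-binding repressors such as GFI1B, GFI1, REST and the SNAIL family recruit the complex through a SNAG domain or related contacts, and in blood cells GFI1B and LSD1 act together in erythroid and megakaryocytic development.

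The samples are Ba/F3, a mouse pro-B cell line that needs the cytokine IL3 to grow. Of untransduced wild-type cells, 5 libraries came from cells kept without IL3 for 6 h (deprived), and 5 from cells kept so and then exposed for 30 min to 10 ng/mL IL3 (stimulated). The remaining groups went through the same 6 h without and 30 min with IL3, after lentiviral transduction with a short hairpin and selection in puromycin. Their hairpins had no target (n = 5) or were directed at STAT5A, STAT5B, LSD1 or HDAC3 (n = 3 each), and deprived cells carrying a hairpin were not analysed here. The labels speak of biological replicates without naming cultures, so the p-values measure only the spread between these libraries. Of the 18 pro-B markers looked up, 6 exceeded 1 CPM (counts per M reads counted in genes, M being 1000000, scaled by TMM factors) in every group, among them Ptprc, Cd79a, Cd79b, Il3ra and Csf2rb. Ebf1, Pax5, Rag1, Rag2 and Kit were at or near 0 (highest library 0.705 CPM, for Ebf1), and Vpreb2 had no read, so several markers that define pro-B cells were not found. Markers of other blood lineages exceeded 1 CPM in every group for 5 of 8 erythroid or megakaryocyte, 6 of 9 mast cell or basophil, 3 of 10 myeloid and 2 of 7 T cell genes.

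Depth ran from 5.48 to 33.8 M counted reads . The libraries also came in different kinds that their groups do not explain. In 5 of them (no-target 1 and 3, LSD1 knockdown 1, HDAC3 knockdown 1 and 2), 14.0 to 24.9% of the reads fell outside annotated genes, against 8.70 to 12.0% in the other 22. These 5, called rich in reads outside genes below, were also the shallowest, at 5.48 to 7.53 M reads. Results that rest on them are given with and without the 5.

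The catalytic gene Kdm1a (GRCm38/mm10, chr4:136550540-136602723, minus strand) and Gfi1b (chr2:28609450-28621982, minus strand) are the genes for which a knockdown comparison below passed the test. Their promoters are shown because GFI1B, which works with LSD1, is known to repress its own promoter, and because IL3 acts through the transcription factors STAT5A and STAT5B. The sequences are the 250 bases before the start site in RefSeq (GRCm38.p6), written 5′ to 3′ on the strand of the gene. Capitals mark AATC or its reverse complement GATT, the core of the sequence that GFI1B recognises, and TTCNNNGAA, the motif of STAT5, which reads alike on both strands.
Kdm1a, chr4:136602724-136602973, minus strand: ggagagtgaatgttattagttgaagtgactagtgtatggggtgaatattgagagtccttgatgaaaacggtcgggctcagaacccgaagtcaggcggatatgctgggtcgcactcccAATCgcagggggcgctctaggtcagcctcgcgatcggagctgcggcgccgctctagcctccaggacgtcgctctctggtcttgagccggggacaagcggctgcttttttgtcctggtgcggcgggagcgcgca
Gfi1b, chr2:28621983-28622232, minus strand: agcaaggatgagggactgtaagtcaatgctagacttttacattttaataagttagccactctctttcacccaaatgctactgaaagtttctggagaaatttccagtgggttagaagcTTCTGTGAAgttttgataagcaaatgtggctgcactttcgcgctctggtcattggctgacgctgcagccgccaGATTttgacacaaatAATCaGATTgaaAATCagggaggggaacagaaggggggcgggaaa
The Kdm1a window held a single AATC, 133 bases before the start. The Gfi1b window held 4 AATC or GATT matches within the last 60 bases and 1 TTCTGTGAA, at 133 bases, and none of the matches overlapped. Of 32851 promoter windows of this length, 69.0% held at least 1 AATC or GATT, 7.04% held 4 or more and 7.02% held TTCNNNGAA. All 9 complex genes were matched to 15 such windows, none of which held TTCNNNGAA. Each window of Kdm1b, Rcor2 and Hmg20b held 2 AATC or GATT matches, and those of Rcor1, Rcor3 and Zmym2 held none. Phf21a and Gse1 had windows with and without a match, and no window of a complex gene held more than 2. A match is a description of the letters and not evidence of binding, and its absence says nothing about the factor.

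In the LSD1 knockdown, Kdm1a RNA fell to 0.531 of the no-target level, and none of the other 8 complex genes passed the test, in a comparison in which 20 of 12073 genes (0.166%) were called. Normalised counts of Kdm1a with the no-target hairpin were 156, 151, 129, 150.0 and 140.3 CPM. In the LSD1 knockdown they were 73.0, 55.4 and 103 CPM, which is 50.2, 38.1 and 70.6% of the no-target mean. The groups did not overlap (1.09% of all genes were lower without overlap), and the second knockdown library was lowest and the third highest. The change was −0.91 on the log2 scale (SE 0.14, 95% interval −1.20 to −0.63; 77.0 ± 23.9 against 145 ± 10.6 CPM, SD, n = 3 and 5), with an adjusted p of 0.00126 in edgeR's quasi-likelihood test. It was the only gene called lower in this comparison. Without the 5 libraries rich in reads outside genes the change was −0.90, with an adjusted p of 0.0515 in the edgeR test and 2 and 3 libraries left. In a fit of only the 2 groups, of 3 and 5 libraries, it was again −0.90, with an adjusted p of 0.821 in the edgeR test. In RNA from bulk cultures, fewer cells expressing a gene and less RNA per cell cannot be told apart.

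Outside the LSD1 knockdown, Kdm1a was among the steadiest genes in the data. Over the other 24 libraries, its lowest, median and highest values were 129, 142 and 161 CPM, and the SD of its log2 level was 0.09, smaller than that of all but 5 of the 12073 genes. Deprived wild type averaged 145 ± 10.2 CPM and stimulated wild type 139 ± 4.24 CPM (SD, n = 5 each). The STAT5A knockdown stood at 138 ± 7.82, the STAT5B knockdown at 146 ± 14.2 and the HDAC3 knockdown at 146 ± 3.08 CPM (SD, n = 3 each). These groups all overlapped, and the lowest of these 24 libraries was above the highest LSD1 knockdown library. Against the mean of the 3 other knockdowns (143 ± 9.30 CPM, SD, n = 9), Kdm1a was lower in the LSD1 knockdown by −0.89 (SE 0.13), with an adjusted p of 0.000582 in edgeR's test, a comparison in which 0.199% of genes were called.

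**Figure D1:**
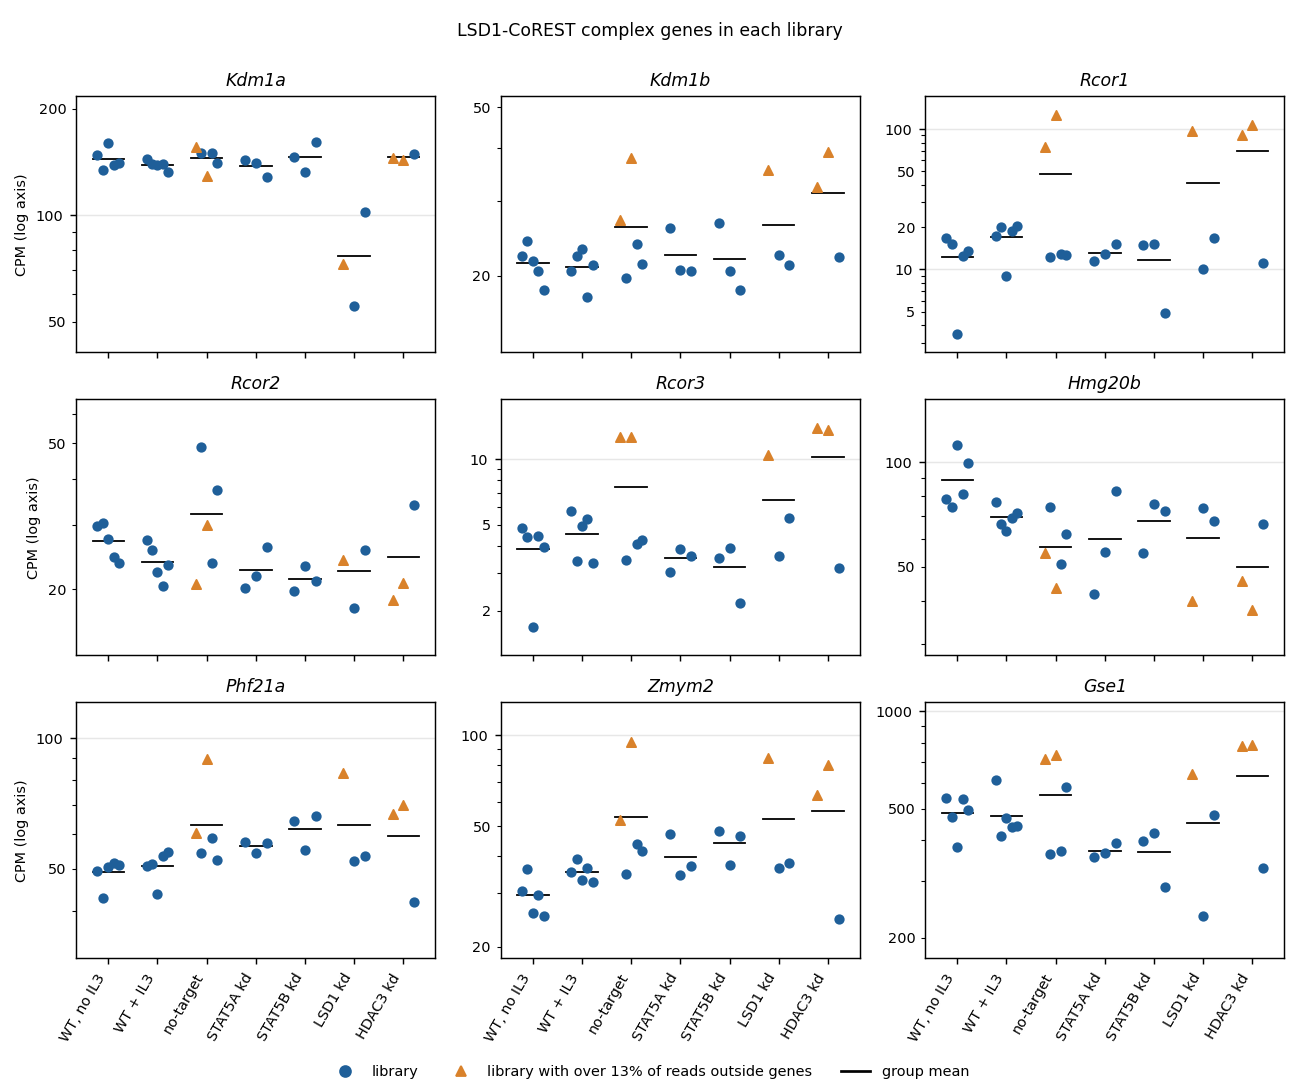
Level of each of the 9 complex genes in all 27 libraries, in CPM on a log axis, by group. Each point is a library, triangles are the 5 libraries rich in reads outside genes, and horizontal lines are group means. Kdm1a is level everywhere except in the LSD1 knockdown (55.4 to 103 CPM against 129 to 161), while for Rcor1 and Rcor3 the triangles stand above all other points.

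Kdm1b (chr13:47043499-47085279, plus strand) encodes LSD2, the second lysine 4 demethylase of this family, which does not bind CoREST. It stood at 17.8 to 26.7 CPM in the 22 libraries not rich in reads outside genes and at 27.02 to 39.3 CPM in the 5 that were. With the no-target hairpin its values were 27.02, 19.8, 38.0, 23.8 and 21.3 CPM, and in the LSD1 knockdown 35.4, 22.3 and 21.2 CPM. The groups overlapped, with the highest value of each in a library rich in reads outside genes. The difference was 0.01 on the log2 scale (95% interval −0.42 to 0.44, or 0.747- to 1.36-fold), and leaving out the 5 libraries moved no call. Exons of Kdm1b overlap those of Dek on the opposite strand. In all libraries together, Dek had 93253 counts and Kdm1b 9446. The library kit does not keep strand, so reads from the shared stretch cannot be assigned to either gene with certainty.

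Levels of different genes were compared per kilobase of merged exons, in stimulated wild type (n = 5). Gse1 was highest, followed by Kdm1a, Hmg20b, Rcor2, Phf21a, Zmym2, Kdm1b, Rcor1 and Rcor3. Neighbours in this order did not overlap over the 5 libraries, except Zmym2 with Kdm1b and Kdm1b with Rcor1. Over all 22 libraries not rich in reads outside genes, Gse1 averaged 41.2 ± 9.03, Kdm1a 26.5 ± 4.20 and Hmg20b 22.7 ± 4.83 CPM per kilobase (SD). Of the CoREST scaffolds, Rcor2 averaged 8.26 ± 2.20, Rcor1 2.38 ± 0.754 and Rcor3 0.287 ± 0.0727 CPM per kilobase in the same libraries. In stimulated wild type and in the 22 libraries, the order was the same when the longest transcript of each gene was used instead. The order was another in the libraries rich in reads outside genes. There, Rcor1 ranked 3 and Rcor2 ranked 7 per kilobase of merged exons, against 8 and 4 in the 22. As a share of the summed Kdm1a and Kdm1b levels per kilobase, Kdm1a made up 68.6, 72.5 and 83.7% in the LSD1 knockdown libraries 1 to 3, the first of them rich in reads outside genes. With the no-target hairpin the shares were 85.98, 88.98, 78.3, 86.99 and 87.5%, libraries 1 and 3 being rich in such reads. The third knockdown library lay within this range only through no-target library 3, and the other 2 lay below it. Among libraries not rich in such reads, knockdown libraries 2 and 3 both lay below every no-target library. The lower share restates the fall of Kdm1a, the target of the hairpin, and is not a separate result.

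Rcor2 (chr19:7267325-7275225, plus strand) was the CoREST gene with the most RNA per kilobase in these cells outside the 5 libraries that stand apart. Its values were 29.8, 30.4, 27.4, 24.5 and 23.6 CPM in deprived and 27.2, 25.6, 22.3, 20.4 and 23.3 CPM in stimulated wild type, and the 2 groups overlapped. The no-target libraries spread more widely, at 20.7, 48.8, 30.0, 23.6 and 37.4 CPM, with libraries 2 and 5 above every wild-type library. The LSD1 knockdown gave 24.01, 17.8 and 25.5 CPM, overlapping the no-target range. The STAT5A knockdown gave 20.1, 21.7 and 26.03 CPM, and the STAT5B knockdown 19.7, 23.1 and 21.1 CPM. The HDAC3 knockdown gave 18.7, 20.8 and 34 CPM. Each knockdown mean lay below the no-target mean, by −0.50 (STAT5A), −0.59 (STAT5B), −0.52 (LSD1) and −0.38 (HDAC3) on the log2 scale, but these 4 comparisons share the same 5 no-target libraries and none passed edgeR's test (smallest adjusted p 0.254). Without the libraries rich in reads outside genes the differences were −0.68, −0.77, −0.75 and −0.10, again without a call.

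Rcor1 (chr12:111039351-111115901, plus strand) encodes CoREST1, the founding scaffold that bridges LSD1 and the deacetylases. Its no-target values were 74.4, 12.2, 127, 12.8 and 12.6 CPM, and those of the HDAC3 knockdown were 90.4, 107 and 11.1 CPM. The LSD1 knockdown gave 97.2, 10.1 and 16.9 CPM. In each of these groups, the libraries rich in reads outside genes stood at 74.4 to 127 CPM, and all others at 10.1 to 16.9 CPM. Over the whole series the ranges were 74.4 to 127 CPM in the 5 and 3.46 to 20.4 CPM in the 22, with no overlap. The STAT5A knockdown (11.5, 12.8 and 15.1 CPM) and the STAT5B knockdown (14.9, 15.2 and 4.92 CPM) had no library of the first kind. Rcor1 differed by −1.85 and −2.0 on the log2 scale from the no-target hairpin in these 2 knockdowns (adjusted p 0.566 and 0.274 in edgeR's test), and by 0.08 and −0.08 once the 5 libraries were left out.

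Rcor3 (chr1:192098546-192138062, minus strand), the third scaffold gene, had the least RNA of the complex. Its no-target values were 12.7, 3.44, 12.7, 4.07 and 4.25 CPM, and its LSD1 knockdown values 10.5, 3.58 and 5.37 CPM. As for Rcor1, the libraries rich in reads outside genes were above all others, at 10.5 to 14.0 against 1.68 to 5.78 CPM. Its differences from the no-target hairpin of −1.07 (STAT5A) and −1.18 (STAT5B) shrank to −0.17 and −0.28 without the 5. Exons of Rcor3 overlap those of an antisense gene, Gm10516, which had 257 counts in all libraries together.

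The balance of the 3 scaffold genes differed between the kinds of library. As a share of the summed CPM per kilobase of the 3 genes, Rcor2 made up 75.3% on average in the 22 libraries (63.7 to 92.2%) and 28.3% in the 5 (24.8 to 31.8%). Rcor1 made up 21.99% (6.47 to 32.4%) and 68.0% (63.6 to 71.3%), respectively. Rcor2 thus led in each of the 22 libraries and Rcor1 in each of the 5.

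**Figure D2:**
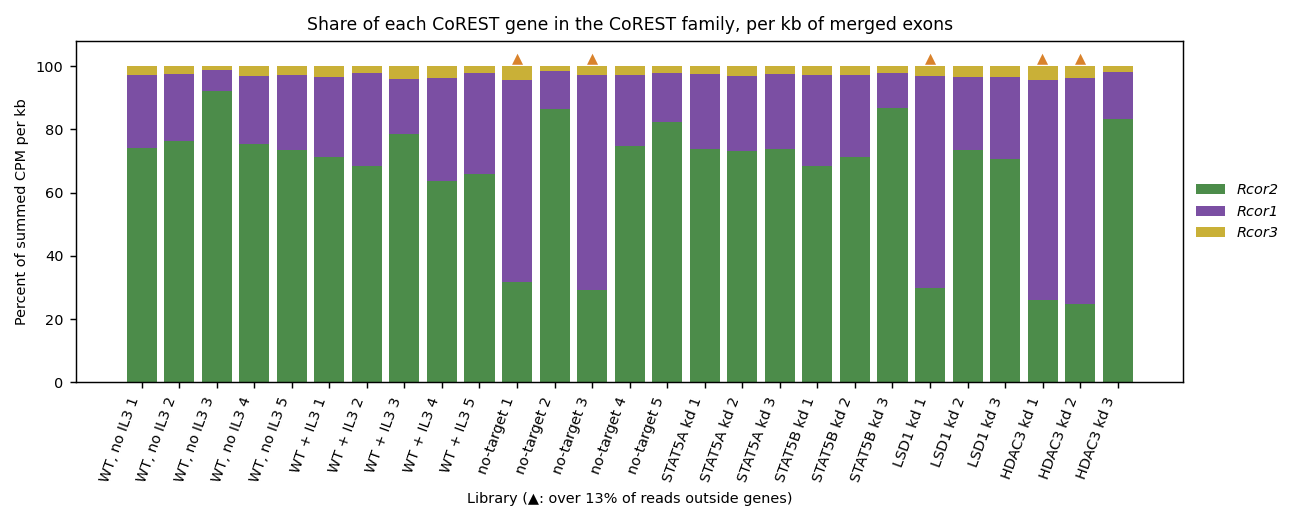
Share of Rcor2, Rcor1 and Rcor3 in their summed CPM per kilobase (percent, stacked bars), 1 bar per library, ordered by group. Rcor2 holds 63.7 to 92.2% of the sum in the 22 libraries not rich in reads outside genes and 24.8 to 31.8% in the 5 that are.

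Among the other subunits, Hmg20b (BRAF35, a high mobility group protein that binds bent DNA; chr10:81346048-81350480, minus strand) was highest in deprived wild type, at 78.6, 74.3, 113, 80.9 and 99.4 CPM. Stimulated wild type gave 76.7, 66.5, 63.5, 69.4 and 71.7 CPM, and only its first library lay above the lowest deprived one. The no-target libraries stood at 54.7, 74.6, 43.6, 50.9 and 62.2 CPM, and the LSD1 knockdown at 39.8, 73.8 and 67.8 CPM. Unlike Rcor1, Hmg20b was low in the libraries rich in reads outside genes, at 37.5 to 54.7 against 41.9 to 113 CPM in the rest, with some overlap.

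Phf21a (BHC80, whose PHD finger reads unmethylated lysine 4; chr2:92093117-92364666, plus strand) ranged from 41.9 to 66.0 CPM in the 22 libraries and from 60.4 to 89.5 CPM in the 5. Its no-target values were 60.4, 54.4, 89.5, 58.7 and 52.3 CPM, and its LSD1 knockdown values were 83.3, 52.1 and 53.6 CPM, which overlapped. Zmym2 (a zinc finger subunit of LSD1-CoREST-HDAC complexes; chr14:56886653-56962701, plus strand) gave 52.7, 34.8, 95.2, 43.8 and 41.4 CPM with the no-target hairpin and 84.4, 36.4 and 37.7 CPM in the LSD1 knockdown. The highest values of Phf21a and Zmym2 in both groups were in libraries rich in reads outside genes. For Zmym2 these 5 did not overlap the rest, at 52.7 to 95.2 against 24.7 to 48.2 CPM.

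Gse1 (a coiled-coil protein found with LSD1 and HDAC1; chr8:120228456-120581390, plus strand) had the most RNA of the 9 genes. It stood at 712, 364, 733, 370 and 583 CPM with the no-target hairpin and at 640, 233 and 479 CPM in the LSD1 knockdown, and the groups overlapped. Deprived wild type gave 540, 473, 382, 536 and 497 CPM, and stimulated wild type 615, 411, 469, 439 and 443 CPM. The 5 libraries that stand apart held 640 to 789 CPM, above the 233 to 615 CPM of the rest. Exons of Gse1 overlap those of Gins2 on the opposite strand, a gene with 28015 counts in all libraries together.

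With a term for the kind of library in the edgeR fit, 8 of the 9 complex genes were called, 6 higher and 2 lower in the libraries rich in reads outside genes. The term compares the 2 kinds of library within groups. Its estimate therefore rests on the no-target, LSD1 knockdown and HDAC3 knockdown groups, which alone hold both kinds. Of all genes tested, 53.1% were called by that term, 25.3% higher and 27.7% lower, so the count is read against a high background. Rcor1 differed most, by 3.00 on the log2 scale (SE 0.31, 7.99-fold, adjusted p 6.77e-08 in edgeR's test), at the 98.99 percentile of all genes. Rcor3 was 3.19-fold, Zmym2 2.19-fold and Gse1 1.85-fold higher, and Kdm1b and Phf21a were higher by 0.64 and 0.57 on the log2 scale. Hmg20b (−0.56, adjusted p 0.00505) and Rcor2 (−0.42, adjusted p 0.0405) were lower by the same edgeR test, and the Rcor2 call was lost under other settings. Kdm1a did not pass (−0.06, adjusted p 0.649). Over all libraries, the 2 kinds did not overlap for 5 members, all higher, against 13.4% of all genes with no overlap in that direction.

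Transcript length and base composition moved with this difference. Across the 11433 genes matched to the annotation (94.7% of those tested), the difference had a Spearman correlation of 0.61 with the length of the longest transcript and of −0.26 with its GC content, as a description across genes that are not independent. The 2 lowest members have the shortest transcripts of the 9, 2501 bases for Hmg20b and 2823 for Rcor2, and the highest GC contents, 60.5 and 61.6%. Kdm1a follows with 3028 bases, and Gse1, Zmym2 and Phf21a are the longest, at 7127, 6974 and 6332 bases. Rcor1, with 5684 bases, lay above all of these longer members. The part of length, composition or depth in the results for single genes was not tested.

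**Figure D3:**
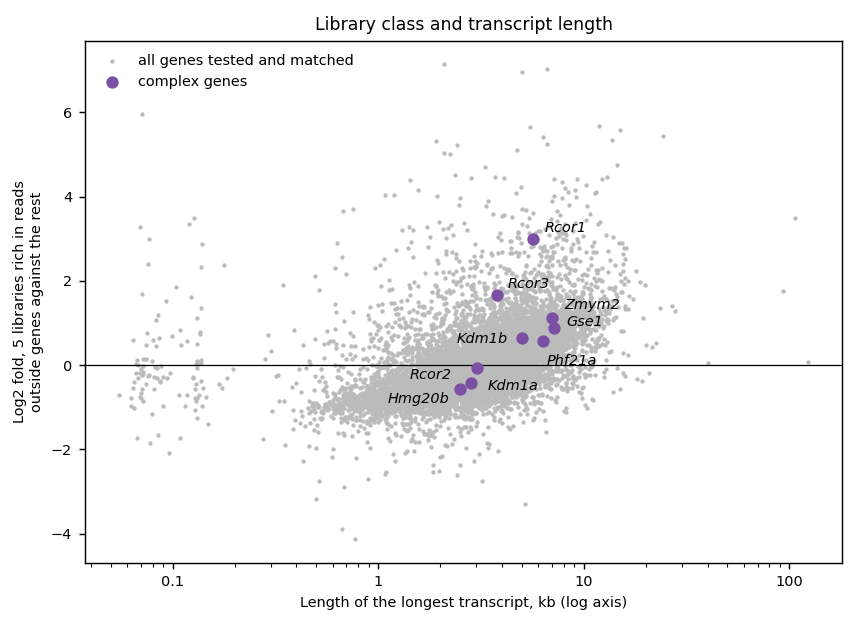
Log2 difference of the 5 libraries rich in reads outside genes from the other libraries of the same groups, by the term in the edgeR fit (vertical axis). The horizontal log axis gives the length of the longest transcript in kilobases. Grey points are all genes tested and matched to the annotation, and labelled purple points the 9 complex genes. The difference rises with length across genes (Spearman 0.61), and Rcor1 lies at 3.00, above the other 8.

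IL3 stimulation for 30 min changed none of the 9 complex genes by the test, in a comparison in which 461 genes (3.82%) were called. None of the 9 had an unadjusted p under 0.05 (14.0% of all genes did). The median difference of the 9 was −0.03 on the log2 scale, beside −0.02 over all genes tested. The largest were those of Rcor1 (0.47, 95% interval −0.91 to 1.85) and Hmg20b (−0.36, 95% interval −0.76 to 0.04), while Kdm1a differed by −0.06 (95% interval −0.29 to 0.18). None of the wild-type libraries was rich in reads outside genes.

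Same-numbered wild-type libraries deviated together, and a fit that compares stimulated with deprived cells within these pairs made more calls, 22.4% of 11195 genes. In it, Rcor1 rose by 0.55 (SE 0.16, adjusted p 0.0436) and Zmym2 by 0.27 (SE 0.07, adjusted p 0.0297) by edgeR's test with the pair as a block. Rcor1 went from 16.8, 15.1, 3.46, 12.5 and 13.6 CPM deprived to 17.4, 19.96, 8.91, 18.7 and 20.4 CPM stimulated, higher in 5 of 5 pairs by 1.03 to 2.57 times. Zmym2 went from 30.6, 36.2, 25.9, 29.7 and 25.4 to 35.4, 39.0, 33.4, 36.4 and 32.8 CPM, higher in 5 of 5 pairs by 1.08 to 1.29 times. Of all genes, 20.5% were higher in every pair. Hmg20b and Rcor2 were lower in 5 of 5 pairs (ratios 0.565 to 0.976 and 0.811 to 0.986), as were 24.8% of all genes, and did not pass (adjusted p 0.0639 and 0.0965 by the same edgeR test). In the same edgeR test, leaving out pair 2, 4 or 5 took the adjusted p of Rcor1 to 0.0958, 0.12 and 0.145. For Zmym2 this edgeR test gave 0.0654, 0.104 and 0.12. Leaving out pair 1 or 3 brought Hmg20b to 0.0416 and 0.0453 in the edgeR test. By the term for the kind of library, too, Rcor1 and Zmym2 were higher and Hmg20b and Rcor2 lower. Reads outside genes made up 10.4, 9.29, 9.83, 10.2 and 9.16% in the deprived libraries of pairs 1 to 5. In the stimulated libraries they made up 10.6, 9.18, 10.2, 10.3 and 10.3%. The part of this difference in the paired results was not tested.

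Knockdown of STAT5A, STAT5B or HDAC3 changed none of the 9 genes by the test. In these comparisons with the no-target hairpin, 0.0663%, 0.34% and 0.0248% of all genes were called. The smallest adjusted p among the members was 0.566 (STAT5A), 0.254 (STAT5B) and 0.87 (HDAC3) in edgeR's test. At an unadjusted p under 0.05 stood 3 members in the STAT5A and 3 in the STAT5B comparison, each time Rcor1, Rcor2 and Rcor3, and none in the HDAC3 comparison, beside 8.42, 15.9 and 5.69% of all genes. The member medians were −0.43, −0.29 and 0.06 on the log2 scale, beside −0.00, −0.01 and 0.00 over all genes, and they became −0.050, −0.0070 and −0.18 without the 5 libraries rich in reads outside genes. The intervals for Kdm1a were −0.35 to 0.20 with STAT5A, −0.26 to 0.28 with STAT5B and −0.27 to 0.28 with HDAC3 knockdown. Without these 5 libraries, 5 of 9 members kept their sign in the STAT5A and in the STAT5B comparison and 4 in the HDAC3 comparison, where 1 knockdown library was left.

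Transduced cells with the no-target hairpin were also set against untransduced stimulated wild type. No gene was called (0.0% by edgeR), although 2042 genes (16.9%) had an unadjusted p under 0.05, among them Rcor1, Rcor2 and Zmym2, and DESeq2 called 122. Rcor1 differed by 1.47, Zmym2 by 0.60, Rcor2 by 0.43 and Hmg20b by −0.28 on the log2 scale, and the median of the 9 was 0.31 beside 0.01 over all genes. Without the libraries rich in reads outside genes, Rcor1 turned to −0.45, Zmym2 stood at 0.18, Rcor2 at 0.61 (adjusted p 0.29 in edgeR's test) and the member median at 0.044.

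**Figure D4:**
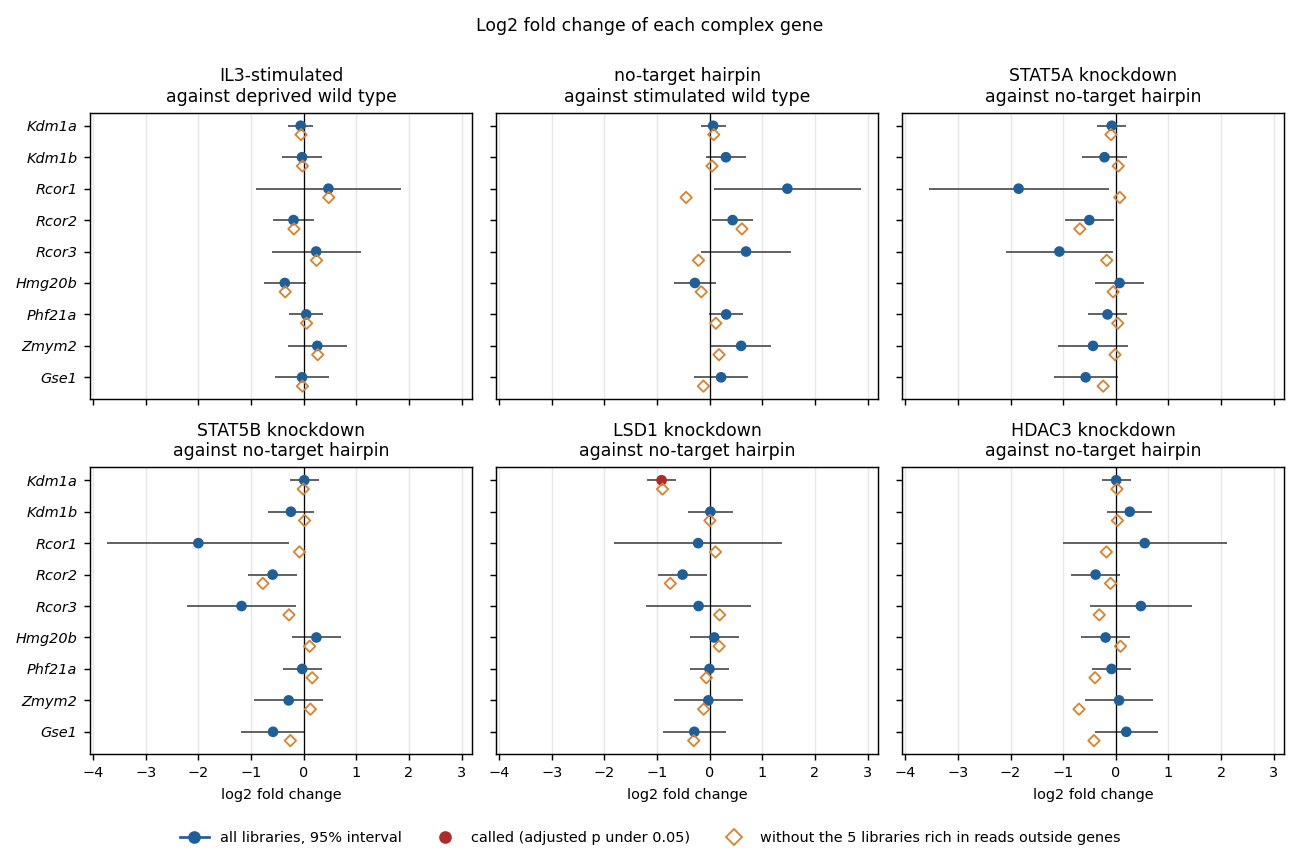
Log2 differences of the 9 complex genes in 6 comparisons, 1 panel each, with 95% intervals from the edgeR fit of 27 libraries. Filled red points passed at an adjusted p under 0.05, and open diamonds give the difference without the 5 libraries rich in reads outside genes. Kdm1a in the LSD1 knockdown (−0.91) is the only red point, and the diamonds of Rcor1 lie far from its points in the STAT5A, STAT5B and no-target panels.

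In the LSD1 knockdown, Rcor2 came closest to Kdm1a among the other members, at −0.52 (95% interval −0.98 to −0.05) with an adjusted p of 0.644 in edgeR's test. The intervals of Rcor1 (−1.82 to 1.38) and Rcor3 (−1.20 to 0.78) were the widest, and those of Phf21a (−0.37 to 0.36), Hmg20b (−0.38 to 0.55), Zmym2 (−0.68 to 0.62) and Gse1 (−0.90 to 0.31) were narrower. With Kdm1a among them, 2 of 9 members had an unadjusted p under 0.05, beside 6.71% of all genes, and the member median was −0.21 beside −0.02 over all genes (−0.065 without the libraries rich in reads outside genes).

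Gfi1b, which encodes a SNAG-domain repressor that recruits LSD1-CoREST, was the recruiting factor that moved with both IL3 and the LSD1 knockdown. Its no-target values were 32.6, 23.2, 34.8, 21.9 and 69.1 CPM, and in the LSD1 knockdown they were 176, 445 and 154 CPM. The knockdown library with the least Kdm1a, the second, had the most Gfi1b, an order among few libraries that was not tested. Gfi1b rose 7.09-fold (95% interval 4.19 to 12.0; log2 2.83, SE 0.37, adjusted p 0.000251 in edgeR's test). Without the libraries rich in reads outside genes the rise was 2.96 on the log2 scale (adjusted p 0.0394 in edgeR's test), and in a fit of only the 2 groups it was 2.84 (adjusted p 0.412 in edgeR's test). Its values in the other knockdowns were 25.8, 27.3 and 30.2 CPM (STAT5A), 33.4, 47.5 and 41.9 CPM (STAT5B) and 21.8, 21.8 and 16.9 CPM (HDAC3), all below each LSD1 knockdown library. Against their mean the LSD1 knockdown was 9.10-fold higher (adjusted p 1.4e-06 in edgeR's test).

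In wild type, Gfi1b stood at 151, 124, 156, 148 and 157 CPM after deprivation and at 120.3, 37.7, 52.5, 36.6 and 48.0 CPM after stimulation. The first stimulated library lay close to the deprived ones. Gfi1b fell by 1.32 on the log2 scale (SE 0.32; 59.0 ± 34.9 against 147 ± 13.5 CPM, SD, n = 5 each), with an adjusted p of 0.0177 in edgeR's test. It was lower in 5 of 5 pairs, at −1.46 (adjusted p 0.00588) in edgeR's test within pairs. The call of the unpaired fit was lost when any of the stimulated libraries 2 to 5 was left out (adjusted p 0.0531 to 0.0729), and without the first stimulated library the change was −1.74 (adjusted p 0.000509), all in edgeR's test. Gfi1, its paralogue, averaged 0.0245 to 0.437 CPM in the 7 groups and was not tested.

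The deacetylase partners did not pass in the wild-type or any knockdown comparison. Hdac1 and Hdac2 differed by 0.17 and −0.25 on the log2 scale in the LSD1 knockdown and by 0.22 and 0.06 with IL3. Within the wild-type pairs Hdac1 was higher in 5 of 5, by 0.25 (adjusted p 0.0698 in edgeR's test with the block), and Hdac2 in 4 of 5. Of the 5 lists of related genes, 7 of 7 core partners, 6 of 15 recruiting factors, 13 of 13 NuRD subunits (the other deacetylase complex that can hold LSD1), 13 of 14 enzymes of lysine 4 methylation and 14 of 14 of lysine 9 methylation were tested. Gfi1b was the only one of these genes called in the wild-type or any knockdown comparison in the fit of all groups. The fit within wild-type pairs, which called 22.4% of all genes, called 3 of 6 recruiting factors (Zeb2 and Zeb1 higher by 0.90 and 0.47, Gfi1b lower), 1 of 13 NuRD subunits (Mta2, higher), 3 of 13 lysine 4 enzymes (Setd7 and Kdm5a higher, Setd1b lower), 2 of 14 lysine 9 enzymes (Suv39h2 higher, Ehmt2 lower) and none of the core partners.

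By the term for the kind of library, which called 25.3% of all genes higher and 27.7% lower, 3 of 7 core partners (Zfp217, Ctbp2 and Zmym3) and 3 of 6 recruiting factors (Rest, Zeb1 and Zeb2) were higher and none lower. These totals are not above the 53.1% of all genes called. Among the lysine 4 enzymes, 12 of 13 were higher by that term, including the methyltransferases Kmt2a, Kmt2c and Kmt2d and the demethylase Kdm5a, and 1 was lower. NuRD subunits were called in both directions, 4 higher and 5 lower, and lysine 9 enzymes mostly higher, 9 against 2.

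Across the 27 libraries, the genes whose log2 CPM most resembled each complex gene differed in how closely they did so. The points share their libraries, so these correlations follow the kinds of library and are given as a description over 9153 genes with a mean of at least 5 CPM. Rcor1 was closest to Pds5a, a cohesin regulator (r = 0.98 over 27 libraries, 0.92 over the 22 not rich in reads outside genes), followed by Mob1a and Strn. Zmym2 was closest to Zfp148 (0.96, 0.86 over the 22), Rcor3 to Dgcr8, a microRNA processing factor (0.96, 0.80), and Kdm1b to Pum2, an RNA-binding translational repressor (0.96, 0.82). Hmg20b was closest to Coasy, an enzyme of coenzyme A synthesis (0.94, 0.91), Gse1 to Map3k4 (0.93, 0.86) and Phf21a to Baz2b (0.90, 0.72). Kdm1a and Rcor2 had no close neighbour, with 0.73 for Lrrc73 (0.75 over the 22) and 0.71 for Slc37a4 (0.70). Among the 36 pairs of complex genes over the 22 libraries, the highest correlation was that of Rcor1 with Rcor3 (0.74) and the lowest that of Hmg20b with Zmym2 (−0.68), with a median of −0.05.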

How the data were processed

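The authors sequenced polyA RNA of Ba/F3 cells in 27 libraries of 7 groups, assigned from the labels. The files deposited by the authors give, for each gene symbol, unnormalised counts of reads. Per the submitters' processing notes, the tools named were Trimmomatic 0.30, TopHat2 2.0.10, HTSeq 0.5.4p5 and DESeq2 1.2 with the mm10 build; their order, the counting mode and the gene models are not given in the sources used here. The kit named in the labels (TruSeq RNA v2) does not mark strand. The 5 summary lines per file entered neither library sizes nor tests. They held 8.70 to 24.9% of reads as outside genes and served to describe libraries, with over 13% called rich in such reads. The 4 libraries with few multi-mapped reads were deprived wild type 2, stimulated wild type 2, STAT5A knockdown 3 and STAT5B knockdown 2. They had at most 0.190 multi-mapped reads per counted read, against at least 0.200 in the others.

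Counts were fitted for all 27 libraries in 1 edgeR 4.0.16 quasi-likelihood model (R 4.3.3, limma 3.58.1, TMM factors, filterByExpr, robust option, a mean per group). The threshold was an adjusted p of 0.05 (two-sided, Benjamini-Hochberg across the 12073 genes kept). The 7 comparisons were stimulated against deprived wild type, each knockdown against the no-target hairpin, that hairpin against stimulated wild type, and the LSD1 knockdown against the mean of the other 3. Intervals are 95% intervals of the fit. Positions and lengths came from GENCODE vM21 and promoters from RefSeq, by symbol. Alternatives were RLE factors, no filter, DESeq2 1.42.0, a replicate block, fits of the compared groups alone, a class term, leaving out libraries, and longest-transcript lengths. The script was tested on simulated data.

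Same-numbered wild-type libraries were paired in the data: deviations from group means correlated in all 5 pairs (r 0.375 to 0.716). Other comparisons did not meet this. No replicates were copies of each other (chi-square per degree of freedom 9.90 to 155 over 42 pairs).

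The members, gene lists and comparisons were chosen with earlier results of these data known. Named are the 9 members; Gfi1, Gfi1b, Hdac1 and Hdac2; per list and comparison up to 4 called genes with the smallest adjusted p; and the genes nearest to each member by correlation, without pseudogenes, small RNAs or predicted models. Dek, Gm10516 and Gins2 are named for their overlap with members.

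A marker gene is not reported here, although it remains in the count of its list.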

Additional observations from a re-analysis of the deposited data

Results flagged for a closer look

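Here the values of 1 complex gene in 1 sample group form a set, and the sets share libraries. Chance alone places about 1 in 20 such sets apart in this way. Of the 27 sets tested, 5 had a library farther from the rest than Dixon's limit. Rcor1 stood at 8.91 CPM in the third stimulated wild-type library, against 17.4 to 20.4 CPM in the other 4. Rcor3 stood at 1.68 CPM in the third deprived wild-type library, against 3.92 to 4.83 CPM. Phf21a was at 42.7 CPM in the second deprived wild-type library (others 49.4 to 51.6 CPM) and at 89.5 CPM in the third no-target library (others 52.3 to 60.4 CPM), which is rich in reads outside genes. Gse1 was at 615 CPM in the first stimulated wild-type library, against 411 to 469 CPM.

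The effect of the LSD1 hairpin on Kdm1a differed from the mean effect of the other 3 hairpins by −0.89 on the log2 scale, and that on Gfi1b by 3.19, both by a test of the difference itself in edgeR.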

How the results depend on the processing

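The fall of Kdm1a in the LSD1 knockdown kept its size under every alternative run (−0.73 to −1.20) and its call under RLE factors, no filter, DESeq2 (−0.90, adjusted p 1.57e-08), the term for the kind of library (−0.92, edgeR adjusted p 0.000537) and each library left out (−1.20 to −0.73). The call was lost without the libraries rich in reads outside genes (−0.90) and without these and the 4 libraries with few multi-mapped reads (−0.88, chosen after seeing the data). It was also lost with only the groups compared (−0.90) and with the replicate block (−0.95, edgeR adjusted p 1.0), so 0 complex genes were called in each of these 4 fits. These fits used fewer libraries than the main one, and the cause of the lost calls was not tested. Against the other knockdowns 0 were called without both kinds of library, with only these groups and with the block. Outside wild type the libraries share only a replicate number (r −0.55 to 0.43 in the 3 LSD1 pairs). In wild type, the replicate block called 2 complex genes, against 0 without it.

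Signs that reversed were all of differences without a call. Without the libraries rich in reads outside genes, with a term for them, and without both kinds of library, Rcor1 stood at 0.11, 0.059 and 0.12 and Rcor3 at 0.19, 0.048 and 0.20 in the LSD1 knockdown, Rcor1 at −0.18, −0.068 and −0.17 in the HDAC3 knockdown and at −0.45, −0.44 and −0.39 in the no-target hairpin against wild type, and Hmg20b at −0.050, −0.14 and −0.36 in the STAT5A knockdown. There, Rcor1 stood at 0.075 and 0.070 under the first 2 of these settings. Over the alternatives other than single libraries left out, further uncalled differences crossed 0. In the HDAC3 knockdown these included Zmym2 (−0.70 to 0.080), Gse1 (−0.42 to 0.22) and Rcor3 (−0.31 to 0.49). In the no-target hairpin against wild type they included Rcor3 (−0.30 to 0.72) and Gse1 (−0.18 to 0.24). Kdm1b, Phf21a and Zmym2 crossed 0 in both STAT5 knockdowns. In the LSD1 knockdown, Phf21a was 0.0069 with RLE factors, 0.017 with the term, 0.018 with only the groups and 0.0042 in DESeq2, Zmym2 0.0014 with the term and 0.0018 with only the groups, and Kdm1b −0.016 with no filter and −0.083 with the block. Leaving out 1 library each gave ranges across 0 in the LSD1 knockdown for Gse1 (−0.63 to 0.0090), Hmg20b (−0.086 to 0.31), Kdm1b (−0.25 to 0.17), Phf21a (−0.25 to 0.14), Rcor1 (−1.79 to 0.54), Rcor3 (−0.70 to 0.073) and Zmym2 (−0.52 to 0.27), for Hmg20b in the STAT5A knockdown (−0.23 to 0.30), and for Rcor1 against the other knockdowns (−0.71 to 1.33). Uncalled members near 0 also crossed it for Kdm1b and Gse1 with IL3, Phf21a in the STAT5A, Kdm1a, Phf21a and Zmym2 in the STAT5B and in the HDAC3 knockdown, and 7 further members against the other knockdowns. The cause was not tested.

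By the term for the kind of library, Rcor2 was not called under RLE factors (−0.38, edgeR adjusted p 0.0607), and called in 2 of 5 fits with 1 library left out (−0.65 to −0.28 over the 5). Over all genes, 461, 8, 41, 20 and 3 calls with IL3 and in the STAT5A, STAT5B, LSD1 and HDAC3 knockdowns became 685, 32, 148, 54 and 8 in DESeq2, 1170, 0, 1, 0 and 0 with only the groups compared, 2504, 0, 0, 0 and 0 with the block, and 876, 3, 11, 6 and 8 without the libraries rich in reads outside genes. The Gfi1b rise in the LSD1 knockdown and its fall with IL3 were not called without the libraries rich in reads outside genes and the 4 with few multi-mapped reads (2.97, edgeR adjusted p 0.0889, and −1.24, edgeR adjusted p 0.14). Rcor3, the lowest member, had 18 to 195 counts per library.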
